A study of Mus musculus with 3 samples.

Results

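The 80 genes described here encode nuclear-encoded subunits of oxidative phosphorylation. They were picked from the 32285 genes of the deposited count tables by symbol, as those that start with Nduf, Uqcr, Cox4, Cox5, Cox6, Cox7, Cox8 or Atp5, without assembly factors (Ndufaf), Ndufa4l2 and symbols marked -ps. Of the 80, 37 belong to complex I by their names, 8 to complex III, 18 to complex IV and 17 to complex V. The rule used symbols and no expression value, but it was set with earlier results of these data known. The rule left out 10 symbols with these prefixes, among them Ndufb1-ps, and it does not reach complex II, the mitochondrially encoded subunits or cytochrome c.

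Oxidative phosphorylation is the chain of protein complexes in the inner mitochondrial membrane. Complexes I, III and IV pass electrons to oxygen and pump protons, and complex V uses the proton gradient to make ATP. In pancreatic beta cells the ATP made from glucose closes potassium channels, which depolarises the cell and triggers insulin release. Most subunits are encoded in the nucleus and imported, while a small core is encoded in mitochondrial DNA, so both genomes contribute to complexes I, III, IV and V.

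The libraries hold UMI counts (unique molecules, tagged at the 3' end) of single islet cells from mice 9 months old, with 1 library labelled ASF-KO, 1 labelled SC35-KO and 1 from WT mice. The series title names SRSF1 and SRSF2, splicing factors also known as ASF and SC35, and a role in diabetes as its subject. The labels used here give neither the deleted sequence, the cells in which it was deleted, the strain nor the number of mice per library. With 1 library per group no test was possible: every difference below compares libraries, and 95% intervals cover counting error only.

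After filtering, 7082, 10799 and 8997 cells were kept in ASF-KO, SC35-KO and WT, from 148320213, 150116204 and 154099078 deposited UMIs, and the filter removed 40.8%, 16.1% and 9.53% of barcodes. Of the barcodes, 11 were shared between ASF-KO and WT, 28 between SC35-KO and WT and 17 between SC35-KO and ASF-KO. Cells were classed by marker gates, which gave 3877, 4997 and 4718 beta-gated cells, 1325, 2221 and 1119 alpha-gated cells, 248, 582 and 305 delta-gated cells, and 418, 385 and 650 endothelial-gated cells in ASF-KO, SC35-KO and WT. Insulin took 63.9% and 63.4% of the UMIs of beta-gated cells in ASF-KO and SC35-KO, against 53.6% in WT, and the median beta-gated cell had 26574, 17394 and 22411 UMIs in ASF-KO, SC35-KO and WT. In endothelial-gated cells, which should lack insulin, it took 5.67% and 4.76%, against 2.41% in WT. Levels are therefore given in CPM, here UMIs per 1000000 of the remaining UMIs, which leave out hormone and mitochondrially encoded genes. Ratios to WT are set against the ratio of the median gene of the same class, and 1.5-fold from it is the size used for counts. Neither targeted gene was under WT in the library labelled for it. In beta-gated cells Srsf1 had 128 CPM in ASF-KO and 142 CPM in SC35-KO, against 101 CPM in WT. Srsf2 had 187 CPM in ASF-KO and 93.8 CPM in SC35-KO, against 72.4 CPM in WT. Between the knockouts, each gene was thus lower in the library labelled for it in these cells. In alpha-gated cells Srsf1 went the other way, with 157 CPM in ASF-KO and 134 CPM in SC35-KO. 3' tags outside a deleted part would still be counted, so these values do not check the labels, and both knockouts are named here as labelled.

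The subunits together took 2.46% of the remaining UMIs of beta-gated cells in ASF-KO and 2.94% in SC35-KO, against 2.58% in WT. In alpha-gated cells the shares were 1.90% in ASF-KO and 2.55% in SC35-KO, against 2.37% in WT. In delta-gated cells they were 2.02% and 2.62%, against 2.44% in WT. In endothelial-gated cells they were 1.15% and 1.59%, against 1.60% in WT. ASF-KO thus had the lowest share in each of these 4 classes, and SC35-KO lay above WT in the 3 endocrine classes and next to it in endothelial-gated cells. Relative to the median gene, the ASF-KO sum was 0.970 of WT in beta-gated cells (95% interval 0.967 to 0.973), 0.733 in alpha-gated (0.728 to 0.738), 0.756 in delta-gated (0.745 to 0.768) and 0.666 in endothelial-gated cells (0.653 to 0.679). The SC35-KO sum was 1.13 of WT in beta-gated cells (1.12 to 1.13), 1.1 in alpha-gated (1.1 to 1.11), 0.998 in delta-gated (0.986 to 1.01) and 0.917 in endothelial-gated cells (0.900 to 0.935). Both knockouts are set against the same WT library. The direction depended on the scale. In beta-gated cells the ASF-KO sum was 1.07 of WT when genes of any level set the median, and the SC35-KO sum was 0.843 of WT per all UMIs, insulin included. In alpha-gated cells the SC35-KO sum was 0.963 of WT per all UMIs.

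**Figure D1:**
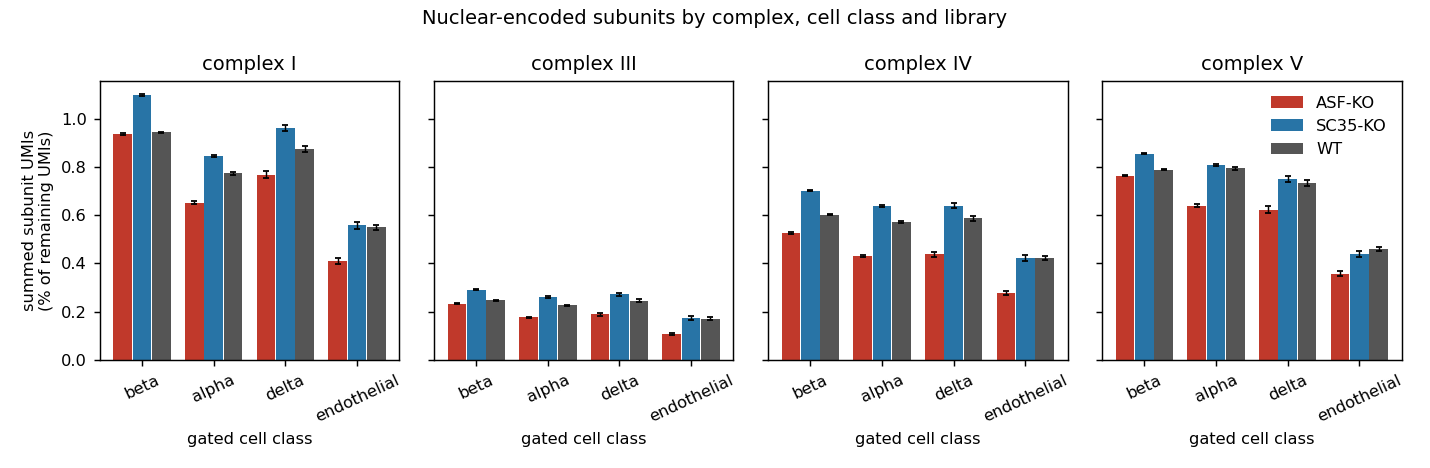
Summed UMIs of the nuclear-encoded subunits, as % of remaining UMIs, by complex (panels), gated cell class (groups of bars) and library (ASF-KO, SC35-KO, WT from left to right); error bars are 95% counting intervals. The ASF-KO bar is the lowest of its group in all 16 groups, and complex I runs up to 1.1% in SC35-KO beta-gated cells.

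By complex, the beta-gated cells of ASF-KO stood at 1.01 of WT for complex I, 0.964 for complex III, 0.890 for complex IV and 0.985 for complex V. The same cells of SC35-KO stood at 1.15, 1.16, 1.15 and 1.07 of WT for complexes I, III, IV and V. In alpha-gated cells of ASF-KO the values were 0.768, 0.711, 0.690 and 0.735, and in endothelial-gated cells 0.691, 0.581, 0.607 and 0.722. No complex of ASF-KO was above WT in alpha-, delta- or endothelial-gated cells.

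Inside these sums the subunits did not move as one. Of the 74 members measured in beta-gated cells (at 10 CPM or more in 1 of the 2 libraries), 8 were at least 1.5-fold higher in ASF-KO relative to the median gene, where 8.98% of all 9641 measured genes were, and 9 were at least 1.5-fold lower, against 9.01% of all genes. In alpha-gated cells none of 73 measured members was higher (4.74% of all genes) and 22 were lower (7.17% of all genes). In delta-gated cells none of 74 was higher (9.47% of all genes) and 20 were lower (11.4% of all genes). In endothelial-gated cells none of 73 was higher (9.96% of all genes) and 32 were lower (13.2% of all genes). The shares of members that were lower thus ran well above the background in those 3 classes, and the beta-gated cells alone held members past 1.5-fold upwards. The median member stood at 1.07 in beta-gated, 0.817 in alpha-gated, 0.830 in delta-gated and 0.683 in endothelial-gated cells of ASF-KO.

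**Figure D2:**
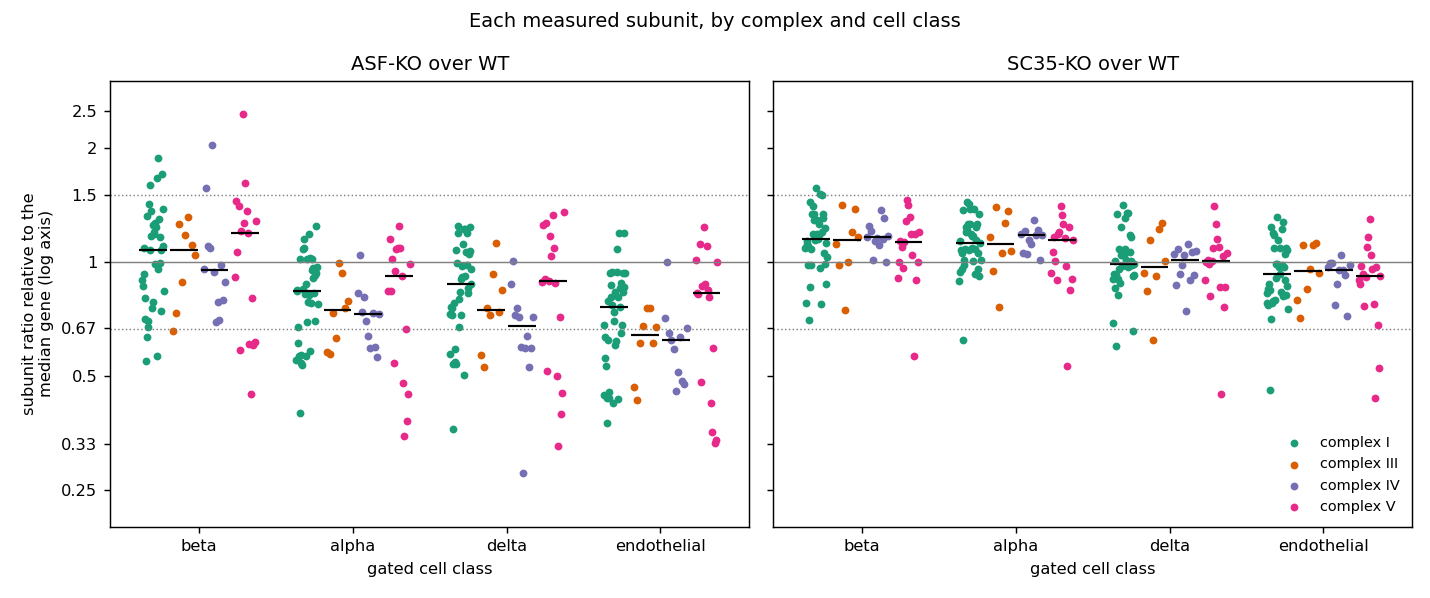
Ratio of each measured subunit to WT, relative to the median gene (log axis), in ASF-KO (left) and SC35-KO (right), by gated cell class and complex (colours); each point is 1 gene, black bars are medians of a complex and dotted lines mark 1.5-fold. ASF-KO points spread from 0.449 to 2.46 in beta-gated cells, and most SC35-KO points lie inside the dotted lines.

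Part of the members at least 1.5-fold lower in ASF-KO were lower in several classes. Of the 80, 9 were lower in all 4 classes, 9 more in 3 of 4, and 46 in none, members too low to be measured included. The share of all genes lower in several classes is not given here. All classes come from the same libraries, so this overlap is not read as particular to the members. Those lower in all classes, which are the 9 lower in beta-gated cells, were Atp5k, Atp5j2, Atp5md, Atp5mpl and Atp5e of complex V, Ndufa3, Ndufa5 and Ndufc1 of complex I, and Uqcr10 of complex III. Atp5k, Atp5j2, Atp5md and Atp5mpl encode small subunits of the membrane part of ATP synthase (e, f, DAPIT and a small proteolipid), and Atp5e encodes the small epsilon subunit of its F1 head. Ndufa3, Ndufa5 and Ndufc1 encode accessory subunits of complex I, and Uqcr10 encodes a small subunit of complex III.

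Atp5k had 253 CPM in ASF-KO and 328 CPM in SC35-KO, against 573 CPM in WT, in beta-gated cells. In alpha-gated cells it had 215 CPM in ASF-KO and 295 CPM in SC35-KO, against 565 CPM in WT. In endothelial-gated cells it had 126 and 156 CPM, against 329 CPM in WT. Atp5k was the member furthest below WT in both knockouts in beta-gated cells, at 0.449 of WT relative to the median gene in ASF-KO (0.437 to 0.460) and 0.566 in SC35-KO (0.552 to 0.580). It was also the only member past 1.5-fold downwards in all 4 classes of SC35-KO, with 0.533 in alpha-gated, 0.449 in delta-gated and 0.438 in endothelial-gated cells. GENCODE vM21 lists genes marked -ps for 5 members (Atp5k, Atp5l, Atp5c1, Uqcrh and Ndufab1), so the counts of these are uncertain where reads could be shared with a copy.

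Ndufa3 followed Atp5k. It had 113 CPM in ASF-KO and 149 CPM in SC35-KO, against 211 CPM in WT, in beta-gated cells, and 82.1 and 115 CPM, against 188 CPM in WT, in alpha-gated cells. Relative to the median gene it stood at 0.548, 0.400, 0.363 and 0.377 of WT in beta-, alpha-, delta- and endothelial-gated cells of ASF-KO. In SC35-KO the values were 0.702, 0.624, 0.599 and 0.458, under the 1.5-fold limit in beta-gated cells and past it in the other classes.

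Atp5md, the DAPIT subunit that helps ATP synthase form dimers, had 345 CPM in ASF-KO and 527 CPM in SC35-KO, against 581 CPM in WT, in beta-gated cells. In endothelial-gated cells it had 73.3 CPM in ASF-KO and 150.2 CPM in SC35-KO, against 203 CPM in WT, which put ASF-KO at 0.334 of WT (0.265 to 0.417). Atp5e had 614 and 1041 CPM in ASF-KO and SC35-KO, against 1065 CPM in WT, in beta-gated cells. Ndufc1 had 244 and 428 CPM, against 438 CPM in WT. For these 3 genes the ASF-KO library alone was low in beta-gated cells, and SC35-KO lay within 1.5-fold of WT.

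The 9 members lower in 3 of the classes were Ndufa1, Ndufa2, Ndufa6 and Ndufa7 of complex I, Uqcr11 of complex III, and Cox6c, Cox7a2, Cox7b and Cox7c of complex IV, all small accessory subunits. In alpha-gated cells Cox7a2 had 265 CPM in ASF-KO and 515 CPM in SC35-KO, against 408 CPM in WT, which put ASF-KO at 0.593 and SC35-KO at 1.29 of WT. Uqcr11 had 282 and 418 CPM, against 451 CPM in WT. Ndufa6, which belongs to the LYR protein family, had 339 and 565 CPM, against 572 CPM in WT. In beta-gated cells these 3 genes stood at 0.781, 0.733 and 0.674 of WT in ASF-KO, between the median gene and the 1.5-fold limit.

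The larger subunits given next, picked after their values were seen, stayed within 1.5-fold of the median gene in the classes named. This did not hold for all core subunits. In ASF-KO beta-gated cells 2 of the 7 core subunits of complex I were past 1.5-fold upwards. Atp5a1 and Atp5b encode the alpha and beta subunits of the F1 head, where ATP is made. Atp5b had 573 CPM in ASF-KO and 407 CPM in SC35-KO, against 403 CPM in WT, in beta-gated cells, and Atp5a1 had 426 and 437 CPM, against 475 CPM in WT. In ASF-KO these were 1.45 and 0.911 of WT, so both subunits of the same hexamer lay on different sides of the median gene. Uqcrfs1, the Rieske iron-sulfur protein of complex III, stood at 1.31 of WT in beta-gated cells of ASF-KO, 0.937 in alpha-gated and 0.755 in endothelial-gated cells. Cox4i1, the largest nuclear-encoded subunit of complex IV, stood at 0.960, 0.827 and 0.709 in the same classes.

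At the other end stood subunits of the ATP synthase c ring and of complex I in beta-gated cells. Atp5g1, which encodes subunit c of the rotating ring, had 843 CPM in ASF-KO and 451 CPM in SC35-KO, against 348 CPM in WT. That was 2.46 times WT relative to the median gene in ASF-KO (2.41 to 2.51) and 1.28 times in SC35-KO (1.25 to 1.31). In alpha-, delta- and endothelial-gated cells of ASF-KO the same gene stood at 1.08, 1.17 and 1.24 of WT. Its paralog Atp5g3, which encodes the same mature protein, had 367 and 332 CPM in ASF-KO and SC35-KO, against 232 CPM in WT, in beta-gated cells (1.61 times in ASF-KO). Atp5g1 thus gave 49.6% of the UMIs of the 3 subunit c genes in beta-gated cells of ASF-KO and 33.2% in SC35-KO, against 35.8% in WT, whereas in alpha-gated cells it gave 27.8% and 25.9%, against 28.7% in WT.

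Ndufs8, a core subunit of complex I that carries iron-sulfur clusters, had 133 and 98.8 CPM in ASF-KO and SC35-KO, against 79.7 CPM in WT, in beta-gated cells. Ndufc2, an accessory subunit of its membrane arm, had 423 and 394 CPM, against 258 CPM in WT (1.67 times WT relative to the median gene in ASF-KO and 1.51 times in SC35-KO). Ndufab1, the mitochondrial acyl carrier protein, and Cox5a, a complex IV subunit that faces the matrix, were 1.59 and 1.57 times WT in ASF-KO beta-gated cells. Cox6a2, described further on, was also among the members that were higher.

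In SC35-KO few members passed 1.5-fold. In beta-gated cells 3 of 74 were higher (4.22% of all genes) and 1 was lower (2.94% of all genes). In alpha-gated cells none of 73 was higher (2.96% of all genes) and 2 were lower (2.93% of all genes). In delta-gated cells none of 74 was higher (6.46% of all genes) and 4 were lower (6.72% of all genes). In endothelial-gated cells none of 73 was higher (9.43% of all genes) and 3 were lower (11.3% of all genes). These shares were near or under the background. Ndufb3, an accessory subunit of complex I, and Ndufc2 were among the higher members in beta-gated cells. Ndufb3 had 196 CPM in ASF-KO and 252 CPM in SC35-KO, against 159 CPM in WT, which was 1.25 and 1.56 times WT. Next came Atp5g2, with 490.0 and 578 CPM against 393 CPM in WT, and Ndufa4, a subunit now assigned to complex IV, with 493 and 555 CPM against 380.3 CPM in WT. Below WT stood, beside Atp5k and Ndufa3, the larger subunits Uqcrc1, Ndufa10 and Ndufs1, at 0.745, 0.778 and 0.774 of WT in SC35-KO.

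In the other classes the highest members of ASF-KO stayed under 1.5-fold. In alpha-gated cells they were Atp5g3 at 1.25 and Ndufb8, an accessory subunit of complex I, at 1.19 of WT, in delta-gated cells Atp5g3 at 1.33 and Atp5o, the stalk subunit that confers oligomycin sensitivity, at 1.35, and in endothelial-gated cells Atp5g1 at 1.24 and Atp5d, the delta subunit of the F1 head, at 1.11. In SC35-KO they were Ndufab1 at 1.44 and Atp5g2 at 1.40 in alpha-gated cells, Ndufb3 at 1.42 and Atp5g2 at 1.40 in delta-gated cells, and Ndufb3 at 1.32 and Ndufa4 at 1.23 in endothelial-gated cells.

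Promoters are printed for Atp5k and Ndufa3, the members lowest in beta-gated cells of both knockouts, and for Atp5g1, the member highest in ASF-KO beta-gated cells (RefSeq, GRCm38.p6, from 250 bases before the gene's start, each on the gene's strand). Capitals mark a match to the core motif of NRF1 (GCGCATGC), of ETS factors such as GABPA (CCGGAAG) or of YY1 (AAGATGGC) on either strand, factors known to act on genes of this pathway.
Atp5k (chr5:108434350-108434649, minus strand): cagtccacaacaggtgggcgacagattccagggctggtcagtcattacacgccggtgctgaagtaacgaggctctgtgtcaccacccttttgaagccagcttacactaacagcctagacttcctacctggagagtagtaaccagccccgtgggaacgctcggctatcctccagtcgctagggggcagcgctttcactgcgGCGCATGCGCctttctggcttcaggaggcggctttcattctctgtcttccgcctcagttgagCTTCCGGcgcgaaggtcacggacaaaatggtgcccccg
Ndufa3 (chr7:3617123-3617422, plus strand): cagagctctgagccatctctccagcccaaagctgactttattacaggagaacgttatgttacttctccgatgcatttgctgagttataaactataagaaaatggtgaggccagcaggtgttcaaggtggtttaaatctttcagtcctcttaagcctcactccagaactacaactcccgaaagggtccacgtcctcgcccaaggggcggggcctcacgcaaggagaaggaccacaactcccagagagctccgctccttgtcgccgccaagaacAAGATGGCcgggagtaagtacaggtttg
Atp5g1 (chr11:96075582-96075881, minus strand): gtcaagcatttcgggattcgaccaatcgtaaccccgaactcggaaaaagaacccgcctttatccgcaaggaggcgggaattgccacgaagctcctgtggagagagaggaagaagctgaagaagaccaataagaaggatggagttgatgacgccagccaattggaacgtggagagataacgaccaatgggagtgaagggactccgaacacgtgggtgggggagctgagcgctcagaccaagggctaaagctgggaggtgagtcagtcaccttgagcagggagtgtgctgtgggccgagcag
The Atp5k window held the NRF1 core on both strands, overlapping each other, and an ETS core after the start. The Ndufa3 window held a YY1 core after the start, and the Atp5g1 window none of these cores. Promoters were matched for 65 of the 80 members. Of these members 13.8% had the NRF1 core in a promoter, against 3.05% of all 27025 genes with a promoter. For the ETS core it was 23.1% against 9.93%, and for the YY1 core 13.8% against 3.19%. A match describes letters in a window and says nothing of binding.

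Grouped by their place in the complexes, a division made with these results in view, the members of ASF-KO differed by role. In alpha-gated cells all 5 small membrane subunits of ATP synthase (Atp5k, Atp5j2, Atp5l, Atp5md and Atp5mpl) were at least 1.5-fold lower, with a sum at 0.491 of WT. None of the 3 c-ring genes and none of the 4 peripheral stalk genes was, with sums at 1.12 and 0.998. In complex I, none of the 7 core subunits that carry the redox centres or bind NADH or quinone was lower (sum 0.969), while 9 of 30 accessory subunits were (sum 0.748). In complex III, 1 of 3 core members (Uqcrc1) and 2 of 5 small subunits were lower, and in complex IV 4 of 11 measured members.

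In beta-gated cells, too, the c ring was highest and the small membrane subunits lowest. There the c ring stood at 1.78 of WT in ASF-KO, the complex I core at 1.35, the peripheral stalk at 1.26, the complex I accessory subunits at 0.973 and the small membrane subunits of ATP synthase at 0.647. In endothelial-gated cells the values were 1.03, 0.906, 0.852, 0.667 and 0.433. In SC35-KO beta-gated cells these 5 groups stood at 1.38, 1.12, 1.22, 1.15 and 0.970 of WT, a narrower range.

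The small subunits have short coding sequences, and in ASF-KO the ratio went with coding length. Members ranged from 156 coding bases (Atp5e) to 2181 (Ndufs1), with a median of 387, against 1368 over the 9404 genes at 10 CPM or more in WT beta-gated cells. Across the measured members, the rank correlation of coding length with the ASF-KO ratio was 0.51 in beta-gated (74 genes), 0.68 in alpha-gated (73), 0.73 in delta-gated (74) and 0.76 in endothelial-gated cells (73). For SC35-KO it was 0.06, 0.08, 0.07 and 0.27. Over the other genes it was -0.11, 0.25, 0.13 and 0.26 for ASF-KO, and -0.37, -0.26, -0.02 and -0.03 for SC35-KO. In beta- and alpha-gated cells of SC35-KO, shorter genes outside the pathway thus tended to stand higher. The correlations of members and other genes cover unlike lengths and cannot be set against each other. In SC35-KO beta-gated cells 1 member had 2000 or more coding bases, against 2743 other genes. At 1000 to 1999 coding bases the medians there were 0.998 for members and 0.989 for other genes. These are descriptions across genes that share libraries and depth. In alpha-gated cells of ASF-KO, 12 of 15 members under 250 coding bases were at least 1.5-fold lower, with a median of 0.578, where 36.7% of the 120 other measured genes of that length were. None of 16 members with 500 to 999 coding bases was, with a median of 0.979. Each of these bins held under 20 members.

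Short genes outside the pathway were also lower in ASF-KO in 3 of the 4 classes, with medians of 0.805, 0.826 and 0.751 in alpha-, delta- and endothelial-gated cells for genes under 250 coding bases that encode no ribosomal protein, but 0.995 in beta-gated cells. Members of that length stood lower than these genes in each class, at 0.734 in beta-gated cells. The 6 ribosomal protein genes of that length stood lower still than the members. Their medians were 0.392, 0.325, 0.291 and 0.242 in beta-, alpha-, delta- and endothelial-gated cells of ASF-KO. The cytosolic ribosomal protein genes took 15.7% of remaining UMIs of alpha-gated cells in ASF-KO and 23.2% in SC35-KO, against 21.3% in WT, and 32 of 79 were lower in ASF-KO. In endothelial-gated cells they took 7.57% and 12.8%, against 13.6% in WT. The lncRNA Malat1, retained in nuclei, had 27849 CPM in ASF-KO alpha-gated cells and 20442 CPM in SC35-KO, against 36010 CPM in WT. With 1 library per group, the library and the genotype cannot be told apart in these differences.

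**Figure D3:**
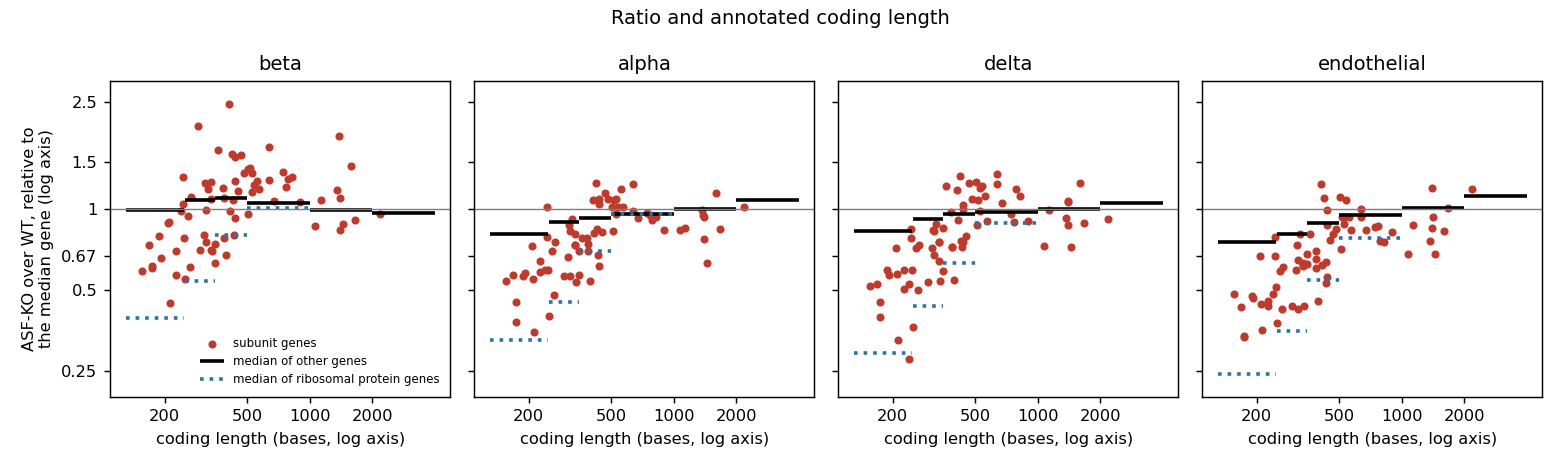
Ratio of ASF-KO to WT relative to the median gene (log axis) against annotated coding length (bases, log axis), by gated cell class. Points are subunit genes, black lines the medians of other genes by length bin, and dotted lines the medians of ribosomal protein genes. Points under 250 bases sit lowest in alpha-, delta- and endothelial-gated cells, where their medians were 0.578, 0.548 and 0.467.

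The share of subunits in a beta-gated cell moved with its insulin share, which differed between libraries. In cells with 50 to 60% of their UMIs from insulin the subunits took 2.36% of remaining UMIs in ASF-KO (847 cells) and 2.76% in SC35-KO (1301 cells), against 2.62% in WT (2451 cells). In cells with 60 to 70% they took 2.49% (2414 cells) and 3.02% (2722 cells), against 3.03% in WT (692 cells). Relative to the median gene ASF-KO stood at 0.895 and 0.796 of WT in these bins, and SC35-KO at 1.01 and 0.940. The surplus of SC35-KO over all beta-gated cells was smaller or absent among cells of the same insulin share, with 1.07 at 40 to 50% insulin (251 SC35-KO and 1298 WT cells).

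**Figure D4:**
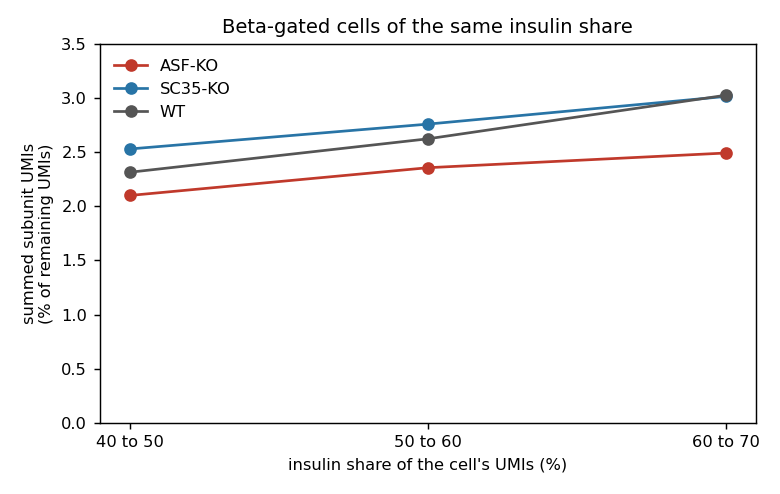
Summed subunit UMIs (% of remaining UMIs) of beta-gated cells in 3 bins of the cell's insulin share, by library. The share went up with insulin in each library, and SC35-KO and WT met at 60 to 70% (3.02% and 3.03%).

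In the same bins Atp5g1 and Atp5k stayed far from the median gene in ASF-KO, while Cox6a2 came closer to it. Atp5g1 stood at 2.35 and 2.19 of WT in ASF-KO at 50 to 60% and 60 to 70% insulin, and Atp5k at 0.431 and 0.375. Cox6a2 was at 1.28 and 1.74 of WT in ASF-KO, against 2.04 over all beta-gated cells. At 50 to 60% insulin, 3 members of ASF-KO were higher (8.21% of all genes) and 13 lower (8.49% of all genes), and at 60 to 70%, 2 were higher (9.35% of all genes) and 22 lower (10.9% of all genes). In SC35-KO none was higher in either bin (4.25% and 3.41% of all genes) and 2 were lower in each, Atp5k and Ndufa3 (3.24% and 3.46% of all genes).

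Cox6a2 and Cox4i2 were each high in 1 class. Cox6a2 encodes the heart and muscle isoform of complex IV subunit 6A, while Cox6a1 encodes the common one, and it lies on chromosome 7 (GRCm38, chr7:128205435-128206387, minus strand). In beta-gated cells it had 159 CPM in ASF-KO and 91.0 CPM in SC35-KO, against 79.5 CPM in WT. In WT its level in beta-gated cells was 29.3 times the median of the 10 classes with at least 50 cells. Cox4i2 had 762 CPM in pericyte-gated cells of WT (96 cells), where the median of the 10 classes was 0, and no further member at 50 CPM or more in its highest class reached 5 times that median. In alpha-, delta- and endothelial-gated cells of WT, Cox6a2 had 21, 5 and 3 UMIs in all. Per 1000 insulin UMIs these were 0.129, 0.140 and 0.0582, against 0.0569 in WT beta-gated cells. The endothelial-gated value rests on 3 UMIs, with an interval of 0.012 to 0.170. Whether free beta-cell RNA gave these UMIs was not tested. The interval of the alpha-gated value (0.0796 to 0.196) lay above the beta-gated one. In ASF-KO beta-gated cells Cox6a2 was 2.04 times WT (1.95 to 2.13), and less than that among cells of the same insulin share. It gave 33.5% of the UMIs of both 6A genes in ASF-KO and 23.2% in SC35-KO, against 21.2% in WT.

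**Figure D5:**
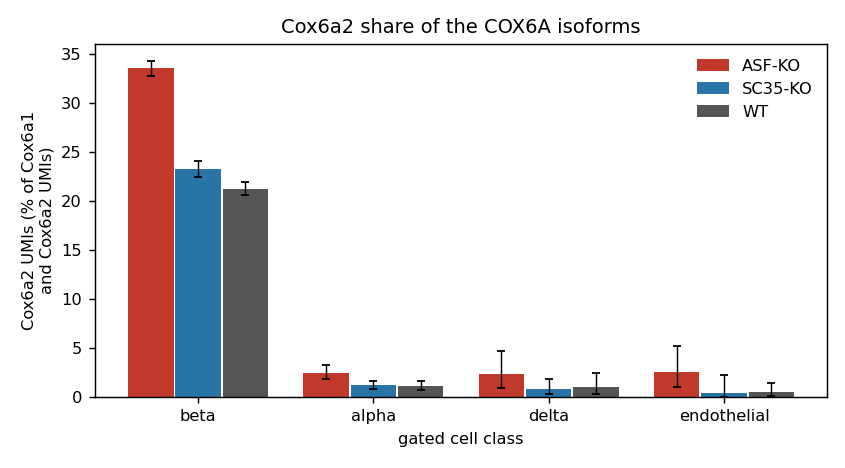
Cox6a2 UMIs as % of Cox6a1 and Cox6a2 UMIs, by gated cell class and library, with 95% exact binomial intervals. Beta-gated cells stand at 33.5% in ASF-KO and 23.2% in SC35-KO, against 21.2% in WT, and alpha-, delta- and endothelial-gated cells lie under 3% in each library.

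Other tissue isoforms had few UMIs in beta-gated cells. Cox4i2, a hypoxia and smooth muscle isoform of subunit 4, gave 0, 1 and 13 UMIs in beta-gated cells of ASF-KO, SC35-KO and WT, of 20348, 21064 and 28712 UMIs of both subunit 4 genes. In the small pericyte-gated classes it gave 55.9% of them in ASF-KO and 58.8% in SC35-KO, against 53.1% in WT. Cox7a1, the muscle isoform of subunit 7A, gave 0.364% of the Cox7a1 and Cox7a2 UMIs in beta-gated cells of ASF-KO (0.258 to 0.499%) and 0.416% in SC35-KO (0.321 to 0.530%), against 1.35% in WT (1.18 to 1.52%). Its 246 UMIs in WT kept it under the minimum for the ratios above. Cox8b had no UMI in beta-gated cells of either knockout and 3 in WT.

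The most abundant members in WT beta-gated cells were small subunits. Each molecule is counted once at its 3' end, so no length correction was applied. Whether recovery differs between genes was not tested, and Atp5l is among the members with genes marked -ps. Atp5l (subunit g of ATP synthase) had 861 CPM in ASF-KO and 1306 CPM in SC35-KO, against 1093 CPM in WT. Cox8a had 941 and 1284 CPM, against 1082 CPM in WT. Cox7c had 581 and 751 CPM, against 743 CPM, and Cox6c 502 and 821 CPM, against 733 CPM in WT. With Atp5e these were the top 5 in WT, and all 5 were lowest in ASF-KO. In WT, beta-gated cells held 1.09 times the share of alpha-gated cells for the sum of members, but 0.863 times (0.859 to 0.868) relative to the median gene, which was itself higher in beta-gated cells.

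Related mitochondrial genes were counted in the same fits, from lists chosen with earlier results of these data known, and the backgrounds are those given for each class. In ASF-KO beta-gated cells, 3 of 17 tricarboxylic acid cycle genes were higher and none lower. Fh1 (fumarase) was 3.44 times WT, Mdh1 (cytosolic malate dehydrogenase) 2.03 times and Mdh2 (its mitochondrial form) 1.55 times. Cycs, which encodes the electron carrier cytochrome c, had 281 CPM in ASF-KO and 141 CPM in SC35-KO, against 100.3 CPM in WT (2.85 and 1.39 times). Of complex II, Sdhb and Sdhd were 1.69 and 1.57 times WT in ASF-KO and Sdha 0.677. Slc25a3, the phosphate carrier, was 1.55 times WT and the only 1 of 7 carriers past 1.5-fold. In SC35-KO beta-gated cells no gene of these 4 lists was past 1.5-fold.

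Of 37 measured assembly factors in ASF-KO beta-gated cells, 2 were higher and 5 lower. Coa3, a complex IV assembly factor, was 1.62 times WT, and the copper chaperone Cox17 and the small Pet100 were 0.621 and 0.604. Pet100 was at 0.568 in SC35-KO beta-gated cells as well, where 2 of 36 assembly factors were lower. Of 14 import genes 3 were higher and Tomm7, a small subunit of the outer membrane translocase, was lower at 0.560. None of the 8 measured regulators of mitochondrial biogenesis was past 1.5-fold in ASF-KO, and 1 was lower in SC35-KO.

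The 13 mitochondrially encoded subunits stood opposite to the nuclear-encoded ones in alpha-gated cells of ASF-KO. Their sum was 1.55 times WT relative to the median gene, with 8 higher and 1 lower, beside 0.733 for the nuclear-encoded members. In beta-gated cells of ASF-KO the sum was 1.25 times WT, with 6 higher and 1 lower, and in SC35-KO 1.1 times, with none higher and 2 lower. Per all UMIs, insulin included, the direction in beta-gated cells was the opposite one: these 13 genes took 2.92% in ASF-KO and 2.61% in SC35-KO, against 3.17% in WT (0.920 and 0.823 of WT), while in alpha-gated cells of ASF-KO they were at 1.58 of WT. The nuclear-encoded sum was 0.30 of the mitochondrially encoded sum in alpha-gated cells of ASF-KO and 0.582 in SC35-KO, against 0.633 in WT. In beta-gated cells it was 0.243 in ASF-KO and 0.320 in SC35-KO, against 0.313 in WT. mt-Nd5 and mt-Atp8 were 2.54 and 2.45 times WT in ASF-KO alpha-gated cells, and mt-Nd3 was 0.485. Cells with over 20% mitochondrial UMIs had been left out, so these sums depend on that limit.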

How the data were processed

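The deposited files hold UMI counts per gene and barcode as whole numbers, not normalized, which the authors made from 10x Chromium 3' libraries. Cell Ranger 5.0.0, STAR and Seurat appear in the submitters' processing notes, as does the mm10 build, with no role given. Members and lists were chosen with earlier results of these data known.

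Cells entered with 1000 or more UMIs over 500 or more genes, of which mitochondrial UMIs made up 20% or less. Doublets marked by Scrublet (scanpy 1.11.5) in each library were removed (319, 886 and 291 cells in ASF-KO, SC35-KO and WT). Beta-gated cells took 20% or more of UMIs from Ins1 and Ins2, and alpha- and delta-gated cells 5% or more from their hormone with under 20% insulin, each with under 2% from any further islet hormone and 2 or more detected markers. Endothelial-gated cells took 0.3% or more from their markers. Gamma-gated cells entered no comparison of libraries, because markers of other types outnumbered their own among the top genes in WT.

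UMIs were summed per class and library. Levels are in CPM, over UMIs without 8 hormone genes and 13 mitochondrially encoded genes. Ratios to WT carry exact conditional binomial 95% intervals, and were divided by the ratio of the median gene with 10 CPM or more in 1 of both sums. Named genes were the 5 highest and 5 lowest per knockout in beta-gated cells and the 2 highest and lowest in other classes (at 50 CPM or more), the 5 most abundant in WT, class-bound members and paired isoforms. Others named in the text, among them members past 1.5-fold in beta-gated cells of ASF-KO, were chosen after their values were seen, and values of 1 member that the rule names are not reported here. Coding lengths and gene positions came from GENCODE vM21 (GRCm38), which held all 80 members. The ratio was checked on simulated counts. Python 3.11.15, numpy 2.4.6, scipy 1.17.1 and pandas 2.3.3 were used.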

Additional observations from a re-analysis of the deposited data

Results flagged for a closer look

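In ASF-KO, 3 of the 26 named members lay on opposite sides of the median gene in different classes, with both intervals more than 1.1-fold from it. Ndufc2, an accessory subunit of complex I, stood at 1.67 of WT in beta-gated cells and 0.780 in alpha-gated cells. Ndufa4 stood at 1.32 in beta-gated cells and 0.781 in delta-gated cells, and Ndufb3 at 1.25 in beta-gated cells and 0.736 in endothelial-gated cells. Among beta-gated cells of the same insulin share, Ndufb3 stood at 1.27, 1.11 and 0.976 of WT at 40 to 50%, 50 to 60% and 60 to 70% insulin. Its place above the median gene thus depended on the insulin share. Ndufc2 stood at 1.46, 1.49 and 1.39 in the same bins. The difference between classes was not tested, as each class has 1 library per group.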

How the results depend on the processing

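No paired analysis was possible because each group has 1 library. Summed over beta-gated cells, the ASF-KO ratio of 0.970 depended little on gates and filters, and the value reversed when genes of any level set the median (1.07). It was 0.715 per all UMIs, 0.953 without division by the median gene, 0.942 with cells weighted equally, 0.943 with a 50 CPM minimum, 0.965 with a looser gate or cell filter, 0.973 with a stricter filter, 0.960 with other hormones up to 5%, and 0.895 and 0.796 at 50 to 60% and 60 to 70% insulin. The SC35-KO ratio of 1.13 reversed per all UMIs (0.843) and at 60 to 70% insulin (0.940). It was 1.14 without the median gene, 1.11 with equal weights, 1.15 with no minimum, 1.14 at 50 CPM, 1.12 under both other gates, the looser filter and the 5% hormone limit, and 1.01 at 50 to 60% insulin. Beta-gated over alpha-gated in WT (0.863) was 0.575 per all UMIs and reversed to 1.09 without the median gene. The insulin bins and the 5% limit were added after seeing the data, and the cause of these changes was not tested. With no minimum 14 members were higher (17.4% of all genes) and 8 lower (23.6%) in ASF-KO, and 5 higher (17.5%) and 4 lower (17.4%) in SC35-KO. At 2-fold 2 were higher (2.38% of all genes) and 1 lower (2.39%) in ASF-KO, and 0 higher (1.05%) or lower (0.886%) in SC35-KO. In SC35-KO 1 was higher under the stricter gate (4.21% of all genes) and under the looser filter (4.12%). Doublets were marked once, on the main filter. Delta- and endothelial-gated cells held the fewest UMIs, so single members have the widest intervals there.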

Other observations

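Gamma-gated cells, which entered no comparison, had subunit shares of 2.08% in ASF-KO and 2.77% in SC35-KO, against 2.51% in WT. The shares of pericyte-gated cells were 1.63% and 2.45%, against 2.31% in WT, from 43, 51 and 96 cells. Macrophage-gated cells had 1.32% and 1.77%, against 1.79% in WT, from 29, 84 and 126 cells. ASF-KO was lowest in each, as in the classes compared above.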
